A study of Homo sapiens with 6 samples.

Results

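Cytosolic ribosomal protein genes were examined in RNA sequencing libraries of T24, an established human cell line that was derived from a carcinoma of the bladder. The members are all table rows named RPL or RPS with a number, with A, X or (for RPL) L allowed as an ending, together with RPLP0, RPLP1, RPLP2 and RPSA. The RPS6K kinases were left out. This gave 80 genes of the 20030 in the table, of which 49 encode proteins of the large ribosomal subunit and 31 proteins of the small subunit. The series holds 3 libraries of a group labelled sh-circRIMS1, by its name a knockdown of the circular RNA circRIMS1 from the RIMS1 gene, and 3 libraries of a group labelled NC. All 6 come from T24 cells, and no allele, dose or time is given for either group. The table's column names carry the prefix si for the knockdown, where the sample titles carry sh, so the kind of RNA used is unclear. Whether the knockdown cells were 1 clone or a mixed culture, and whether replicates came from separate cultures, is not stated in the labels. The p-values therefore cover no more than the variation among the 6 libraries, and that variation may be technical. The level of circRIMS1 itself was not analysed here, since a row for the host gene RIMS1 does not measure it. The study's stated purpose was to find messenger RNAs that change with the knockdown.

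The cytosolic ribosome makes nearly all proteins of the cell. Its large subunit forms the peptide bonds and its small subunit reads the messenger RNA, and each is built from ribosomal RNA and a set of proteins that is needed in about equal numbers. Messenger RNAs of vertebrate ribosomal proteins typically begin with a C followed by an unbroken run of pyrimidines, the terminal oligopyrimidine (TOP) motif, through which the mTORC1 kinase and the RNA-binding protein LARP1 control their translation and stability.

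The start sequences of members with large and small changes are shown first, because the TOP motif is the best known feature that these genes share and the choice of members did not use it. RefSeq entries of build GRCh38.p14 gave promoter windows for 63 of the 80 members, and 10 members had more than 1 listed start. Each line gives 15 bases before and 15 bases from the listed start, read 5′ to 3′, with capitals marking a C at the start and the pyrimidines that follow it where there were at least 4 of them.
RPLP0, chr12:120201097-120201126, minus strand: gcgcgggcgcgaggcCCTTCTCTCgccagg
RPL6, chr12:112411428-112411457, minus strand: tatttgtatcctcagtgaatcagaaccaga
RPS6, chr9:19380222-19380251, minus strand: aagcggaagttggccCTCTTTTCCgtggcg
RPL4, chr15:66504841-66504870, minus strand: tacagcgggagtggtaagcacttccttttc
RPS3A, chr4:151099613-151099642, plus strand: cgactcccacttccgCCCTTTTggctctct
RPS7, chr2:3575245-3575274, plus strand: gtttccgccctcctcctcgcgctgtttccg
RPL31, chr2:101002274-101002303, plus strand: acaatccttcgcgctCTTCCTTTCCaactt
RPL27, chr17:42998404-42998433, plus strand: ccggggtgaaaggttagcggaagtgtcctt
RPL12, chr9:127451392-127451421, minus strand: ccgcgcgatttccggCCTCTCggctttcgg
RPS19, chr19:41860240-41860269, plus strand: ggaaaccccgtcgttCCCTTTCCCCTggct
RPL35, chr9:124861943-124861972, minus strand: agccccgcctacttcCTCTTTCCCTCggag
RPL38, chr17:74203663-74203692, plus strand: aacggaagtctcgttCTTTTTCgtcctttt
The RPLP0 to RPS7 lines belong to the 6 members that fell most and the RPL31 to RPL38 lines to the 6 with the smallest change, among members with an entry that could be shown. RPLP0, RPS6 and RPS3A have the capital run at the listed start, and so do RPL31, RPL12, RPS19, RPL35 and RPL38. RPL6, RPL4, RPS7 and RPL27 do not. A listed start of this kind was found in 46 of the 63 members (73.0%), against 5.14% of all 27305 genes in the promoter table and 7.40% of the 8283 tested genes that are no members. It was found in 28 of 39 large subunit members and 18 of 24 small subunit members. The longest run was 19 bases, at RPL39, and the median of the 46 members was 8 bases.

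Members made up between 55 and 57 of the 100 highest genes in each library, although the labels' protocol lists a digestion of linear RNA with RNase R. Whether these libraries were digested is uncertain. If they were, the values describe the linear RNA that was left, and shares below are of the RNA sequenced rather than of all messenger RNA in the cells. The values are FPKM, fragments scaled to transcript length and to the library's mapped fragments, as deposited by the authors. FPKM are relative to all RNA of a library, so a lower value cannot be told apart from more RNA of other genes, nor fewer cells from less RNA per cell. Summed FPKM per library lay between 268143 and 284682, and the relative depth estimated from the steps of low values lay between 1 and 1.17 times that of NC replicate 1. sh-circRIMS1 replicate 2 stood apart from the other libraries of its group, with a Pearson's r across tested genes of 0.974 to replicate 1, against 0.997 between sh-circRIMS1 replicates 1 and 3. Of 11 epithelial and urothelial markers 4 passed the filter on low values described below. KRT7, KRT8 and KRT18, keratins of simple epithelia, were abundant, while the urothelial genes UPK1B and UPK3A were listed at 0 in all 6 libraries. CDH1, EPCAM, GATA3, UPK1A and UPK2 were also below the filter, averaging 0.0487, 0.549, 0.0532, 0.131 and 0.115 FPKM over the libraries. The summed level of the 11 lay between 704 and 955 FPKM in sh-circRIMS1 and between 1240.1 and 1285 FPKM in NC. KRT7, KRT18 and PPARG were lower in limma's test, and KRT8 did not pass. Below the filter, EPCAM averaged 0.732 FPKM in sh-circRIMS1 and 0.366 FPKM in NC, and GATA3 0.0824 FPKM in sh-circRIMS1 and 0.0239 FPKM in NC. For both, every sh-circRIMS1 library lay above every NC library, while CDH1, UPK1A and UPK2 overlapped. The 7 leukocyte markers together summed to between 0.634 and 1.34 FPKM in the sh-circRIMS1 libraries and between 0.804 and 1.03 FPKM in the NC libraries, with 4 of them at 0 throughout. The 5 fibroblast markers summed to between 0.665 and 0.832 FPKM in sh-circRIMS1 and between 0.108 and 0.154 FPKM in NC, with 1 of them at 0 throughout. Nearly all of that sum was COL1A1, below the filter, which averaged 0.723 FPKM in sh-circRIMS1 and 0.132 FPKM in NC. The 4 endothelial markers summed to between 13.3 and 16.4 FPKM in sh-circRIMS1 and between 15.1 and 16.4 FPKM in NC. Nearly all of this was CDH5, which averaged 13.7 FPKM in sh-circRIMS1 and 15.4 FPKM in NC and did not pass. The part of these markers in the results was not tested.

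The members held a smaller part of the sequenced RNA, as summed FPKM, in the sh-circRIMS1 libraries. Their summed FPKM was 17.4%, 17.5% and 17.4% of the library total in sh-circRIMS1 replicates 1, 2 and 3, against 19.9%, 19.9% and 20.1% in the NC replicates. The mean share was 17.4% ± 0.0581 in sh-circRIMS1 and 19.9% ± 0.135 in NC (SD, n = 3 each). The groups did not overlap, and the sh-circRIMS1 share was 0.873 times that of NC. RPS2, a small subunit protein at the entry of the messenger RNA channel, gave the largest single part of the net difference of -8058 FPKM, 6.87%, followed by RPLP1 with 5.06% and RPLP0 with 4.93%. The 11 members with the largest losses gave 46.2% of it.

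**Figure D1:**
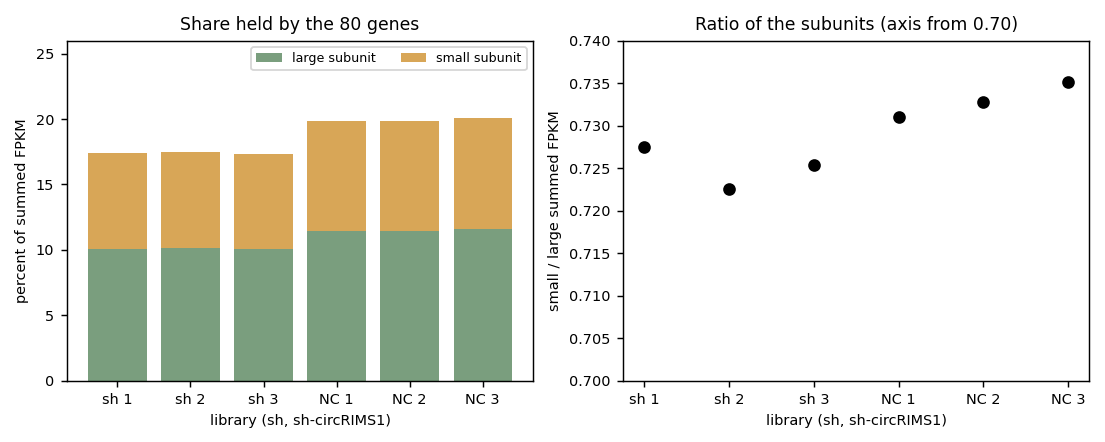
Left, summed FPKM of the large and small subunit genes as a percent of all FPKM in each library; right, the summed FPKM of the small subunit genes divided by that of the large subunit genes, on an axis that starts at 0.70. The sh-circRIMS1 libraries (sh) stand at 17.4% to 17.5%, below the NC libraries at 19.9% to 20.1%, and their subunit ratios lie below those of NC.

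Of the 80 members, 78 passed the filter of a mean FPKM of at least 1. In limma's test of log2(FPKM + 0.5) over all 10408 genes that passed, 41 of the 78 were lower in sh-circRIMS1, 0 were higher and 37 did not pass an adjusted p of 0.05. Over all tested genes 12.7% were lower and 25.0% higher. At an unadjusted p under 0.05 the counts were 49 lower and 0 higher, against 17.1% and 31.0% of all tested genes. Without NC replicate 1, 26 members were lower and without NC replicate 3, 24, where 6.55% and 6.62% of all tested genes were lower. The median log2 change of the 78 members was -0.17, against 0.06 for all tested genes, with 71 of them below 0 (41.6% of all tested genes were below 0), and single members ran from -0.66 for RPLP0 to 0.22 for RPL39L. In 60 members every sh-circRIMS1 library lay below every NC library, and in 1, RPL36, every one lay above. The share of all tested genes with every sh-circRIMS1 library below every NC library was 22.0%, and 35.5% had every one above. Replicates of the members lay close together, with a median coefficient of variation of 3.55% in sh-circRIMS1 and 1.61% in NC, against 10.4% and 3.81% over all tested genes.

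The fall was seen in each sh-circRIMS1 library. The median member lay 0.19, 0.23 and 0.15 below the NC mean on the log2 scale in sh-circRIMS1 replicates 1, 2 and 3, and 71, 73 and 68 of the 78 lay below it. The median of all tested genes lay 0.05, 0.08 and 0.08 above the NC mean in the same libraries. In sh-circRIMS1 replicate 2, 57 of the 78 lay below the mean of the other two knockdown libraries, against 5060 of all 10408 tested genes. Leaving that library out gave 56 lower and 5 higher members and a median of -0.16, where 23.9% of all 10340 tested genes were lower and 36.8% higher. The 5 higher ones were RPL36, RPL36A, RPL38, RPS19 and RPS29. All 41 members called with it were called lower without it.

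How libraries are scaled against each other changed these counts. With median of ratios scaling 66 members were lower and 0 higher, where 23.3% of all tested genes were lower and 17.2% higher, while the median of all tested genes moved by -0.12. Relative to the median of all tested genes the members' median was -0.23 on the deposited scale and -0.24 after that scaling. With quantile normalization 30 were lower and 4 higher, where 20.0% of all tested genes were lower and 15.3% higher, and the members' median lay only -0.02 from that of all tested genes, which itself moved by -0.12. Among the 4 were RPL35, RPL38 and RPS27, and all 30 lower members were among the 41. Over all tested genes 66.3% of the calls were higher on the deposited scale, 42.5% after median of ratios scaling and 43.2% after quantile normalization.

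**Figure D2:**
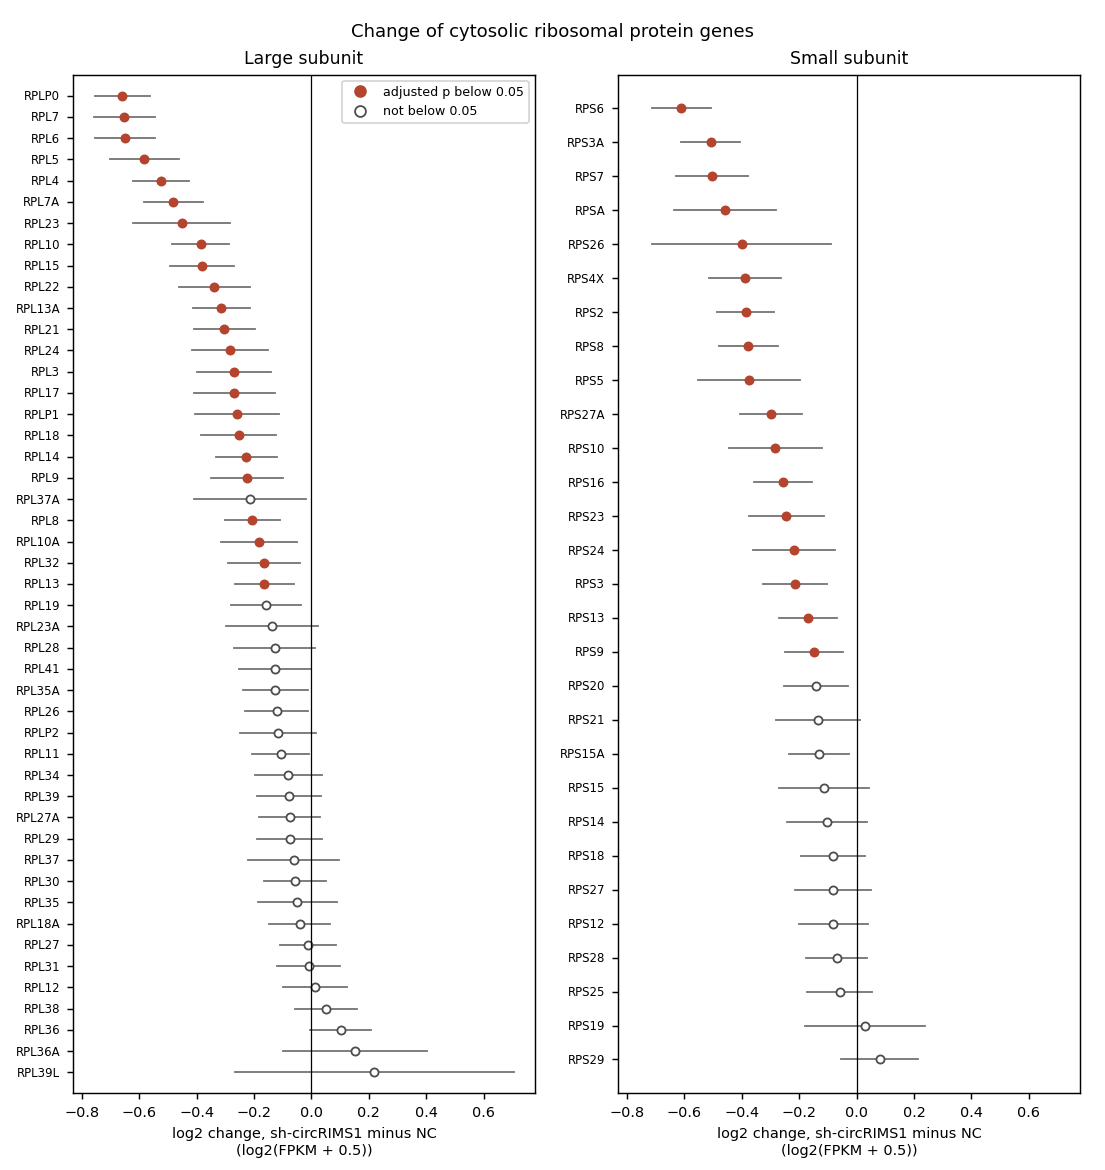
Log2 change of the tested members reported here, sh-circRIMS1 minus NC, each with its 95% interval from limma; filled points passed an adjusted p of 0.05. Changes run from -0.66 for RPLP0 to 0.22 for RPL39L, and all filled points lie below 0.

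Both subunits had lower members, where 12.7% of all tested genes were lower. Of 47 tested large subunit genes 23 (48.9%) were lower, with a median of -0.16, and of 31 small subunit genes 18 (58.1%) were lower, with a median of -0.21. Summed over each subunit, the large one held 10.1% ± 0.0441 of all FPKM in sh-circRIMS1 and 11.5% ± 0.065 in NC, and the small one 7.32% ± 0.0190 in sh-circRIMS1 and 8.44% ± 0.0702 in NC (SD, n = 3 each). The small subunit's sum was 0.727, 0.723 and 0.725 times that of the large subunit in sh-circRIMS1 replicates 1, 2 and 3 and 0.731, 0.733 and 0.735 times in the NC replicates. The ratios of the groups did not overlap, and the mean ratio was 0.725 ± 0.00245 in sh-circRIMS1 and 0.733 ± 0.00206 in NC (SD, n = 3 each), a difference of -0.00787 that was not tested. The difference between the subunits' medians was not tested either.

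Among the proteins of the stalk, the arm of the large subunit that recruits translation factors, RPLP0 changed most. RPLP0, which anchors the stalk to ribosomal RNA, measured 693, 681 and 682 FPKM in sh-circRIMS1 replicates 1, 2 and 3, against 1081, 1071 and 1096 FPKM in the NC replicates. It averaged 685 ± 6.54 FPKM in sh-circRIMS1 and 1083 ± 12.7 FPKM in NC (SD, n = 3 each), a log2 change of -0.66 (SE 0.04; limma adjusted p = 0.000142). The level in sh-circRIMS1 was 63.3% of that in NC, and the groups lay far apart against their spread. RPLP1, which pairs with RPLP2 on the stalk and was the highest member by mean FPKM, measured 2164, 1919 and 2207 FPKM in sh-circRIMS1 and 2492, 2519.8 and 2500.0 FPKM in NC. It fell by 0.26 on the log2 scale (limma adjusted p = 0.0171), with replicate 2 the lowest of the knockdown libraries, and lost the call without the filter (limma adjusted p = 0.112) and when any single NC replicate was left out (limma adjusted p from 0.0672 to 0.0736). RPLP2 measured 1158, 1075 and 1207 FPKM in sh-circRIMS1 and 1216, 1266 and 1242 FPKM in NC, a change of -0.12 that did not pass (limma adjusted p = 0.141). It passed as lower under 3 of the alternatives, among them without sh-circRIMS1 replicate 2 (-0.07; limma adjusted p = 0.0324), and was 0.01 with quantile normalization. RPL12, at the base of the stalk, averaged 1139 ± 42.5 FPKM in sh-circRIMS1 and 1129 ± 17.5 FPKM in NC (SD, n = 3 each), with overlapping groups and a 95% interval of the log2 change of -0.10 to 0.12.

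RPL5 and RPL11 enter the large subunit together with the smallest ribosomal RNA, and outside the ribosome the same particle binds the p53 regulator MDM2. RPL5 measured 468, 502 and 459 FPKM in sh-circRIMS1 replicates 1, 2 and 3 and 708, 711 and 719 FPKM in the NC replicates, and fell by 0.58 on the log2 scale (95% interval -0.70 to -0.46; limma adjusted p = 0.000397). RPL11 measured 617, 602 and 630.1 FPKM in sh-circRIMS1 and 667, 664 and 661 FPKM in NC, without overlap, and its change of -0.11 did not pass (95% interval -0.21 to -0.01; limma adjusted p = 0.0869). The 95% intervals of these partners did not meet, while the difference between their changes was not itself tested. RPL11 passed as lower with median of ratios scaling, with an equal sum over all genes except the members, with array weights and without sh-circRIMS1 replicate 2, while its change was 0.05 and did not pass with quantile normalization.

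**Figure D3:**
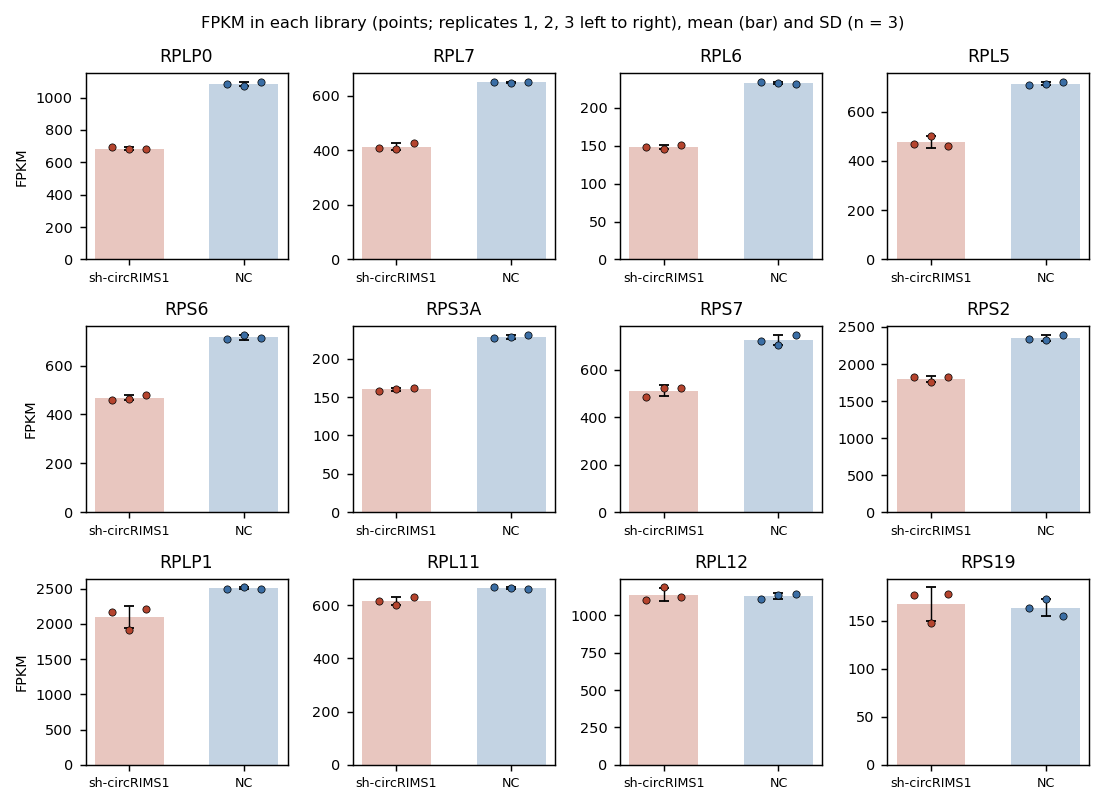
FPKM of 12 members in each library (points), with the mean as a bar and the SD as an error bar (n = 3), sh-circRIMS1 left and NC right. RPLP0, RPL7, RPL6, RPL5, RPS6, RPS3A, RPS7 and RPS2 are well apart between the groups, RPLP1 and RPL11 are closer, and RPL12 and RPS19 overlap.

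Other large subunit proteins with the largest falls were RPL7, RPL6, RPL4 and RPL7A. RPL7 measured 407, 403 and 427 FPKM in sh-circRIMS1 and 649, 647 and 648 FPKM in NC, a log2 change of -0.65 (SE 0.04; limma adjusted p = 0.000190). RPL6 measured 148, 145 and 151 FPKM in sh-circRIMS1 and 234, 233 and 232 FPKM in NC, a log2 change of -0.65 (SE 0.04; limma adjusted p = 0.000190). Both kept their groups apart by more than the spread of either. RPL4, whose loop lines the tunnel through which the new protein leaves, measured 689.8, 670.2 and 689.9 FPKM in sh-circRIMS1 and 995, 972 and 981 FPKM in NC and fell by 0.52 (limma adjusted p = 0.000296). RPL7A measured 935, 910.4 and 956 FPKM in sh-circRIMS1 and 1278, 1304 and 1329 FPKM in NC and fell by 0.48 (limma adjusted p = 0.000462). RPL23, a further member that can bind MDM2, averaged 594 ± 55.8 FPKM in sh-circRIMS1 and 809.9 ± 8.99 FPKM in NC (SD, n = 3 each), and here sh-circRIMS1 replicate 2 was the highest of its group. Of the 8 proteins listed as lining the exit tunnel or its opening, RPL4 and RPL17 were lower and the other 6 did not pass. Among all tested genes 12.7% were lower in that fit. Leaving out sh-circRIMS1 replicate 2 made 5 of the 8 lower, where 23.9% of all tested genes were lower.

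Of the highest large subunit genes RPL37A, RPL39 and RPL35 did not pass. RPL37A measured 1759, 1523 and 1869 FPKM in sh-circRIMS1 and 1891, 2008 and 2055 FPKM in NC, without overlap but with wide replicates, a log2 change of -0.21 (limma adjusted p = 0.0809). It passed as lower with median of ratios scaling, with an equal sum over all genes except the members, with array weights, and without sh-circRIMS1 replicate 2 (-0.13; limma adjusted p = 0.0118) or 3 (-0.28; limma adjusted p = 0.0464). RPL39, a short protein of the exit tunnel, averaged 1481 ± 45.4 FPKM in sh-circRIMS1 and 1564 ± 44.8 FPKM in NC (SD, n = 3 each; limma adjusted p = 0.219). RPL35, also at the tunnel opening, averaged 1183 ± 74.6 FPKM in sh-circRIMS1 and 1223 ± 22.6 FPKM in NC (SD, n = 3 each), and its log2 change of -0.05 turned to 0.11 with quantile normalization. RPL13A, which in addition to its place in the ribosome takes part in silencing inflammatory messenger RNAs, fell by 0.31, with 1113, 1063 and 1105 FPKM in sh-circRIMS1 and 1349.6, 1363 and 1368 FPKM in NC (limma adjusted p = 0.00194). The smallest changes were those of RPL31 (247 FPKM in sh-circRIMS1 and 249 FPKM in NC), RPL27 (436 FPKM in sh-circRIMS1 and 439 FPKM in NC) and RPL12.

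In the small subunit RPS6 fell most. RPS6, the protein that the S6 kinases phosphorylate downstream of mTORC1, measured 461, 465 and 479.9 FPKM in sh-circRIMS1 replicates 1, 2 and 3 and 709, 726 and 711 FPKM in the NC replicates. It averaged 469 ± 9.99 FPKM in sh-circRIMS1 and 716 ± 9.50 FPKM in NC (SD, n = 3 each), a log2 change of -0.61 (SE 0.04; limma adjusted p = 0.000211), or 65.5% of the NC level. All 3 knockdown libraries lay within a narrow range well under the NC libraries. RPS3A, a protein of the platform, measured 158, 160.4 and 162 FPKM in sh-circRIMS1 and 227, 228 and 231 FPKM in NC and fell by 0.51 (limma adjusted p = 0.000377). RPS7, needed for processing of small subunit ribosomal RNA, measured 484, 525 and 524 FPKM in sh-circRIMS1 and 720.4, 705 and 748 FPKM in NC and fell by 0.50 (limma adjusted p = 0.000806). Each of these was lower in every knockdown library than in any NC library.

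RPSA, which is also known as the laminin receptor, measured 551, 463 and 548 FPKM in sh-circRIMS1 and 711, 711 and 719.7 FPKM in NC and fell by 0.46 on the log2 scale (limma adjusted p = 0.00418). RPS26, at the exit of the messenger RNA channel, measured 95.6, 70.6 and 101 FPKM in sh-circRIMS1 and 117, 117 and 115 FPKM in NC. For RPSA and RPS26 replicate 2 was the lowest knockdown library. The call of RPS26 was marginal (log2 change -0.40; limma adjusted p = 0.0495), and it was lost without any single NC replicate, without sh-circRIMS1 replicate 1, with quantile normalization and under other settings, with adjusted p up to 0.134. Without sh-circRIMS1 replicate 2 it passed with a smaller change of -0.24 (limma adjusted p = 0.000118). RPS2 measured 1820.2, 1751 and 1825 FPKM in sh-circRIMS1 and 2342, 2319 and 2395 FPKM in NC, a log2 change of -0.39 (limma adjusted p = 0.000883). It was the highest small subunit gene in NC and stood just under RPS18 in sh-circRIMS1. With quantile normalization the change of RPS2 was smaller, -0.18.

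RPS18, RPS12 and RPS25, abundant small subunit genes, did not pass the test, although RPS18 did without sh-circRIMS1 replicate 2 (-0.08; limma adjusted p = 0.0412) and all of them did with median of ratios scaling. RPS18 averaged 1815 ± 65.5 FPKM in sh-circRIMS1 and 1923 ± 46.3 FPKM in NC, RPS12 1387 ± 68.6 FPKM in sh-circRIMS1 and 1466 ± 14.3 FPKM in NC, and RPS25, which some viral messenger RNAs need for internal initiation, 1332 ± 42.6 FPKM in sh-circRIMS1 and 1389 ± 40.9 FPKM in NC (SD, n = 3 each). RPS19, the first gene found mutated in Diamond-Blackfan anaemia, measured 176, 147 and 178 FPKM in sh-circRIMS1 and 163, 172 and 155 FPKM in NC, with overlapping groups and replicate 2 the lowest knockdown library. Without replicate 2 it was called higher (log2 change 0.12; limma adjusted p = 0.0290). By place in the subunit, 6 of 14 head proteins were lower, with a median of -0.13, and 12 of 17 proteins of the body and platform, with a median of -0.24. Of 19 members mutated in Diamond-Blackfan anaemia, an inherited failure of red cell production, 8 were lower and 11 did not pass, with a median of -0.13. In this fit of all 6 libraries 12.7% of all tested genes were lower and 25.0% higher. Without sh-circRIMS1 replicate 2, 8 head proteins were lower and 2 higher, and 14 of the body and platform were lower. Of the 19, 12 were then lower and 2 higher. Over all tested genes 23.9% were lower and 36.8% higher without that library.

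Ribosomal proteins were first numbered by their position on gels, where larger proteins tend to carry lower numbers, and the changes were larger at low numbers. This grouping was chosen after the values were seen, and no test was made. Among all tested genes 12.7% were lower. Of the 10 large subunit genes numbered 3 to 10 all 10 were lower, with a median of -0.43. Among the genes numbered 11 to 19, 6 of 10 were lower with a median of -0.20, among those numbered 21 to 30, 4 of 11 with a median of -0.13, and among those numbered 31 to 41, 1 of 12 with a median of -0.07. In the small subunit all 10 genes numbered 2 to 10 were lower, with a median of -0.38. Those numbered 11 to 20 had 3 of 11 lower with a median of -0.11, and those numbered 21 to 29 had 4 of 9 lower with a median of -0.14. Across genes, which share the same libraries and are not independent replicates, Pearson's r between number and change was 0.68 over 43 large subunit genes and 0.52 over 30 small subunit genes. Above number 10 it was 0.48 over 33 large subunit genes and -0.03 over 20 small subunit genes, so in the small subunit the relation rests on the lowest numbers. The log2 mean FPKM of a gene showed weaker relations, with r of -0.15 over 46 large and -0.13 over 31 small subunit genes. RPL39L was left out of the numbered groups and of all these relations. It had the lowest mean FPKM of the tested members, 7.44, and the highest change, 0.22. Protein and transcript lengths were not used here.

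**Figure D4:**
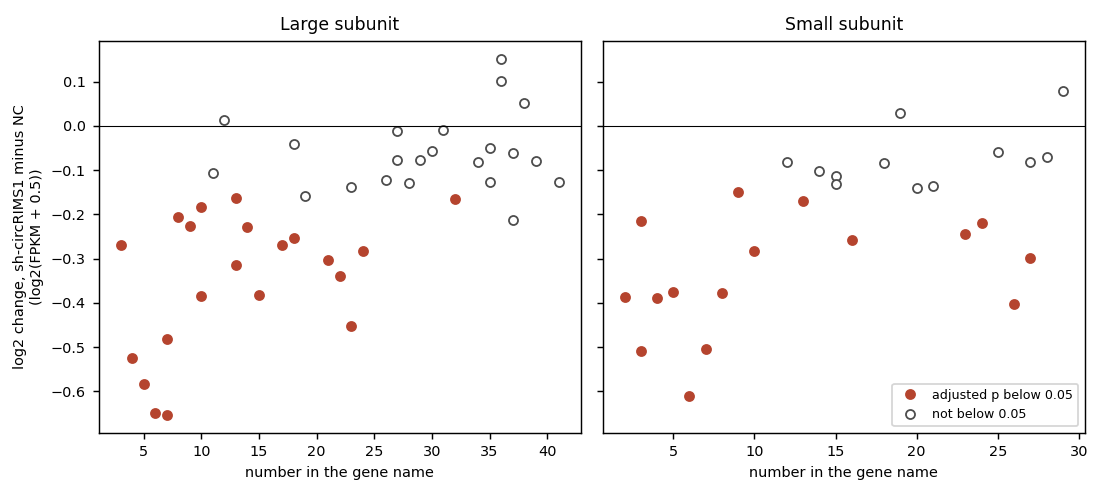
Log2 change, sh-circRIMS1 minus NC, against the number in the gene name for the large and small subunit genes reported here; filled points passed an adjusted p of 0.05 in limma. All genes numbered 10 or less are filled, and in the large subunit most of those above 30 are open and near 0. RPL39L is not shown.

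Among the members, a TOP run at a listed start went with no larger share of lower genes. Of 46 tested members with such a run 22 were lower, with a median of -0.14, and of 16 with an entry but no such run 11 were lower, with a median of -0.25; this difference was not tested. Listed starts are those of the annotation and may differ from the starts used in T24 cells. The letters CGGAAG, the core of ETS factor sites, were found on either strand of the 300-base window in 40 of 63 members (63.5%), against 55.1% of mitochondrial ribosomal protein genes, 6 of 12 of the other TOP messenger RNAs described below, 41.1% of tested genes that are no members and 22.6% of all genes. GGGCGG, the core of SP1 sites, was found in 58.7% of members, against 79.6% of those tested genes and 48.3% of all genes. AAGATGG, part of YY1 sites, was found in 12.7% of members, against 10.2% and 7.11%, and TATAAA in 9.52% of members, against 7.42% and 14.0%.

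Paralogs gave few values. RPL3L, a form of RPL3 known from striated muscle, and RPL10L, a form of RPL10 known from testis, were listed at 0 FPKM in all 6 libraries. Their main forms were lower, RPL3 with 737 ± 42.8 FPKM in sh-circRIMS1 and 887 ± 13.3 FPKM in NC and RPL10 with 468 ± 8.90 FPKM in sh-circRIMS1 and 612 ± 1.74 FPKM in NC (SD, n = 3 each), log2 changes of -0.27 and -0.39 (limma adjusted p = 0.00948 and 0.000898). The call of RPL3 was lost with quantile normalization and without NC replicate 3 (limma adjusted p = 0.135 and 0.0516). RPL39L measured 5.79, 9.28 and 9.17 FPKM in sh-circRIMS1 and 5.86, 6.18 and 8.37 FPKM in NC, with overlapping groups and the widest replicates of any member tested. Reads shared with near-identical copies and pseudogenes, of which ribosomal protein genes have many, may have been split between them, so levels of single members are uncertain to that extent.

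Of 8 ribosomal proteins and paralogs outside the naming rule, 1 was lower, 1 higher and 6 did not pass. Among all tested genes 12.7% were lower and 25.0% higher. The counts of the 8 became 4 lower and 2 higher without sh-circRIMS1 replicate 2, where 23.9% of all tested genes were lower and 36.8% higher. RACK1, a signalling scaffold on the head of the small subunit, measured 798, 854 and 811 FPKM in sh-circRIMS1 and 1050.4, 1054 and 1062 FPKM in NC and fell by 0.36 on the log2 scale (limma adjusted p = 0.00152). RPS27L, a p53-induced paralog of RPS27, measured 31.8, 35.8 and 30.9 FPKM in sh-circRIMS1 and 27.8, 25.0 and 26.6 FPKM in NC and rose by 0.31 (limma adjusted p = 0.0196), while RPS27 itself changed by -0.08 and did not pass. FAU, which encodes a ribosomal protein fused to a ubiquitin-like protein, averaged 322 FPKM in sh-circRIMS1 and 338 FPKM in NC and did not pass. RPS27A, the member that is made as a ubiquitin fusion, fell by 0.30.

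Most genes on a list of other messenger RNAs known for a TOP motif were lower as well. Of 19 such genes 16 were lower, 1 was higher and 2 did not pass, with a median of -0.37. Over all tested genes 12.7% passed as lower and 25.0% as higher. Genes with a TOP run at a listed start showed no such fall outside the members and this list. Of 603 such tested genes 13.6% passed as lower, and their median change was 0.066. Of 7668 without the run 12.0% passed as lower, and their median change was 0.061. EEF1A1, the elongation factor that brings transfer RNAs to the ribosome, averaged 1429 ± 37.5 FPKM in sh-circRIMS1 and 2064 ± 5.91 FPKM in NC (SD, n = 3 each), a log2 change of -0.53 (limma adjusted p = 0.000296). EIF4B, a cofactor of the initiation helicase, fell by 0.73, EIF3L, a subunit of initiation factor eIF3, by 0.68, and EEF1B2, the exchange factor of EEF1A1, by 0.59. The exception was EIF4A2, an initiation helicase, which measured 165, 184 and 176 FPKM in sh-circRIMS1 and 122, 117 and 116 FPKM in NC and rose by 0.56 (limma adjusted p = 0.000729). Without sh-circRIMS1 replicate 2, 17 of the 19 were lower and 2 higher, where 23.9% of all tested genes were lower and 36.8% higher.

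Of 13 genes of mTORC1 and TOP control 0 passed limma's adjusted threshold, 3 were lower at an unadjusted p under 0.05, and their median change was -0.02. Among all tested genes 12.7% were lower and 25.0% higher at the adjusted threshold, and 17.1% and 31.0% at the unadjusted one. LARP1 averaged 46.0 ± 0.267 FPKM in sh-circRIMS1 and 49.3 ± 0.345 FPKM in NC, and the S6 kinase RPS6KB1 6.85 ± 0.466 FPKM in sh-circRIMS1 and 8.08 ± 0.565 FPKM in NC (SD, n = 3 each), with limma adjusted p of 0.138 and 0.0628. Without sh-circRIMS1 replicate 2, 5 of the 13 were lower and 2 higher, where 23.9% of all tested genes were lower and 36.8% higher. Of the 5 tested RSK and MSK kinases 0 passed, and 1 was higher at an unadjusted p under 0.05. Of these kinases 3 were higher and 0 lower without sh-circRIMS1 replicate 2. Levels of messenger RNA do not measure the activity of these kinases.

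Of 14 genes of RNA polymerase I transcription, which makes the ribosomal RNA precursor, 4 were lower, 0 higher and 10 did not pass, with a median of -0.06. With all 6 libraries 12.7% of all tested genes were lower and 25.0% higher. The counts of the 14 were 5 lower and 3 higher without sh-circRIMS1 replicate 2, where 23.9% of all tested genes were lower and 36.8% higher. UBTF, which marks the ribosomal RNA genes for transcription, averaged 11.7 ± 1.33 FPKM in sh-circRIMS1 and 18.0 ± 0.542 FPKM in NC (SD, n = 3 each; limma adjusted p = 0.00249). The polymerase subunits POLR1E and CD3EAP and the initiation factor RRN3 fell by 0.44, 0.48 and 0.25 on the log2 scale. Among 9 chaperones and assembly partners of single ribosomal proteins, RPF2 and RRS1, which bring in the particle of RPL5 and RPL11, fell by 0.48 and 0.25 (limma adjusted p = 0.00612 and 0.0163). PDCD2L, a paralog of the RPS2 chaperone PDCD2, measured 13.3, 15.2 and 11.5 FPKM in sh-circRIMS1 and 7.40, 7.62 and 7.07 FPKM in NC and rose by 0.81 (limma adjusted p = 0.00164), and the other 6 did not pass. Of the 9, 2 were lower and 2 higher without sh-circRIMS1 replicate 2.

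Proteins of the mitochondrial ribosome, which translates the messenger RNAs of the mitochondrial genome, were mostly not called. Of 78 tested 10 (12.8%) were lower, 7 higher and 61 did not pass, a share of lower genes near the 12.7% of all tested genes, and their median was -0.04. They held 0.837% ± 0.0211 of all FPKM in sh-circRIMS1 and 0.860% ± 0.00114 in NC (SD, n = 3 each), with 0.814% in sh-circRIMS1 replicate 2. In that replicate 63 of the 78 lay below the mean of the other knockdown libraries, against 5060 of all 10408 tested genes. Leaving that replicate out gave 20 lower and 25 higher genes and a median of 0.02. In the same setting 23.9% of all 10340 tested genes passed as lower and 36.8% as higher, and their median was 0.06. The difference between the cytosolic and mitochondrial sets was not tested.

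**Figure D5:**
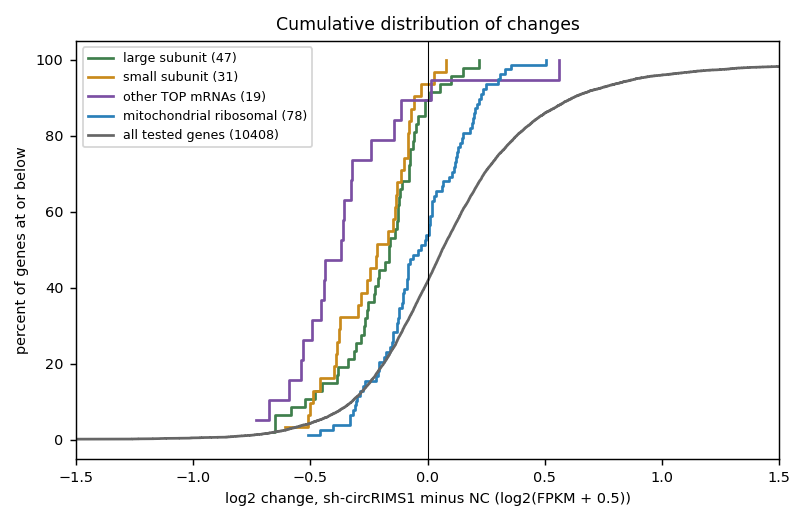
Percent of genes with a log2 change, sh-circRIMS1 minus NC, at or below each value, for 47 large and 31 small subunit genes, 19 other TOP messenger RNAs, 78 mitochondrial ribosomal protein genes and all 10408 tested genes; the axis is limited to changes between -1.5 and 1.5. The curves of both subunits and of the other TOP messenger RNAs lie to the left of that of all tested genes, with medians of -0.16, -0.21 and -0.37 against 0.06.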

How the data were processed

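Per the labels' protocols, TRIzol-extracted total RNA was cleared of ribosomal RNA and treated with RNase R against linear RNA before directional libraries were built; whether these libraries were so treated is uncertain. The authors deposited 1 table of FPKM for 6 libraries. The tools named are StringTie, HISAT2, Cufflinks, Trimmomatic, DESeq and HTSeq, per the submitters' processing notes. Not given in the sources used here are versions, roles, genome build, strand setting and the treatment of shared reads. Absolute depth is unknown. Relative depth was estimated from ratios of FPKM below 0.3, of which 35.1% to 51.8% lay within 2% of the chosen step.

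Values were put on the scale log2(FPKM + 0.5), and genes averaging 1 FPKM or more entered a limma fit (version 3.58.1, R 4.3.3). It had an intensity trend and no term besides group, and two-sided p-values were adjusted by Benjamini-Hochberg over the 10408 genes, with a threshold of 0.05. This scale understates changes of low genes. The fit was checked on simulated data with independent normal noise and, for each gene, the same spread in both groups. That check does not cover the unequal spread of the groups or the outlying sh-circRIMS1 replicate 2. Changes are sh-circRIMS1 minus NC. Samples were grouped by title, and knockdown columns were matched to titles by circ name and number. The members and gene lists were chosen with earlier results of these data known, so counts within lists are descriptions and no list was tested.

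Genes were named by rule: the stalk proteins and RPS6, the 5 highest, the 6 largest falls and the 3 smallest changes of each subunit, RPL5 and RPL11, paralog pairs, members below the filter, and up to 4 called genes of other lists. RPL23, RPS27, RPS27A, FAU, LARP1, RPS6KB1 and genes that changed under other settings were named after their values were seen. Alternatives covered the pseudocount, the filter, scaling, library weights, the trend, a replicate block and each library left out. Start sequences are from RefSeq, build GRCh38.p14, for 63 of 80 members. Values of a few genes that the rule names are not reported here.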

Additional observations from a re-analysis of the deposited data

How the results depend on the processing

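All settings kept the members' median below 0, and none of the 41 lower members became a higher call in any of them. With quantile normalization 40 of the 41 stayed below 0, and in each of the other settings all 41 did. With median of ratios scaling and quantile normalization the median of all tested genes was also below 0. Relative to that of all tested genes, the members' median was -0.23 on the deposited scale. It was -0.17 with a mean FPKM of at least 5 and only -0.02 with quantile normalization. With 3 libraries a group, counts changed when any single library was left out. Leaving out 1 library at a time, 24 to 56 members were lower and 0 to 5 higher, 13 to 34 in the large and 11 to 22 in the small subunit, with 685 to 2474 of all genes lower and 1630 to 3803 higher. The lowest counts came without an NC library, with 26, 29 and 24 members lower without NC replicates 1, 2 and 3, where between 6.55% and 6.62% of all tested genes were lower. With each library left out in turn, the members' median ran from -0.18 to -0.16, those of the large subunit from -0.18 to -0.13 and those of the small subunit from -0.24 to -0.18. Members near 0 changed sign there without a call on that side, RPL12 from -0.0175 to 0.0335, RPL31 from -0.0241 to 0.0134 and RPL35 from -0.0825 to 0.00336, while RPS19 ran from -0.0192 to 0.118 and was called higher without sh-circRIMS1 replicate 2.

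Median of ratios scaling gave 66 lower members, 38 in the large and 28 in the small subunit, with medians of -0.295 over all, -0.291 in the large and -0.342 in the small subunit. Over all genes 2429 were then lower and the median turned to -0.0546. Quantile normalization gave 4 higher members, medians of -0.0686 over all, -0.0572 in the large and -0.116 in the small subunit, 2085 genes lower and 1588 higher, a median of all genes of -0.0533, and a difference in the members' share of FPKM of -1.18 percentage points, against -2.52 as deposited. It turned RPL35 to 0.11 (called higher) and, without a call, RPL11 to 0.0507, RPL27 to 0.0789, RPL31 to 0.0766, RPL39 to 0.0430, RPLP2 to 0.0099, RPS12 to 0.011 and RPS18 to 0.12. Median of ratios turned RPL12 to -0.11 and RPS19 to -0.10, and the equal sum without the members turned RPL12 to -0.0049. Array weights gave 4 higher members, a large subunit median of -0.13, 2424 genes lower and 3983 higher. A mean FPKM of at least 5 left 1469 genes higher and a median of all genes of 0.00646, and TPM gave that median as 0.0927, RPL27 as 0.015 and RPL31 as 0.017. Array weights turned RPL12 to -0.013, RPL31 to 0.012 and RPL35 to 0.0021. The cause of these shifts was not tested.

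With the replicate number as a block 34 members were lower and 0 higher, in 20 large and 14 small subunit genes, and 996 genes were lower and 2142 higher. The numbers do not pair the libraries, since deviations of same-numbered libraries correlated at -0.03, -0.003 and -0.04. Of the values of named members under all alternatives 436 kept direction and side of the threshold, 19 passed newly, 15 no longer passed and 23 turned. RPL35 with quantile normalization was the 1 of the 23 that passed the threshold, and 0 of the 23 were called lower or higher on the deposited scale. These counts leave out members that were not named.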

Other observations

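Outside the members, 613 tested genes had a C and at least 4 pyrimidines at a listed start. Of these 90 (14.7%) were lower in sh-circRIMS1 while 151 (24.6%) were higher, and their median log2 change was 0.06. Of 7670 tested genes with an entry but no such start 924 (12.0%) were lower while 1890 (24.6%) were higher, and their median was 0.06. Of the 19 other TOP messenger RNAs 12 had an entry, and 10 of these, EIF4A2 among them, had the run.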
